A study of Mus musculus and synthetic construct with 15 samples.

Results

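The regions described here are 5 genomic segments of 400 bp around the mouse gene Irx4 that were tested for enhancer activity in the hearts of wild-type mice. They are all the regions, of 3820 in the series, whose midpoint has Irx4 as its nearest protein-coding gene body within 100 kb, and all 5 were among the 2601 regions tested, those averaging 10 or more counts in DNA. In this reporter assay many candidate sequences are pooled in a viral vector, here AAV9, an adeno-associated virus that reaches heart muscle. Pups received the pool on postnatal day 0 and hearts were taken on postnatal day 7, when the RNA transcribed from each sequence was counted and set against its DNA in the virus. There were 15 libraries, namely 5 from atrial RNA, 5 from ventricular RNA and 5 from AAV DNA. All animals were wild type and received the AAV9 library. Whether every RNA library came from the same preparation of it as the DNA libraries was not tested. The labels give cardiomyocytes as the cell type, which could not be checked against marker genes because the tables count reporter sequences only. Neither the promoter that drives the reporter nor the number of animals per library is given in the labels. The p-values therefore measure the spread between these libraries, which may be technical.

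Irx4 encodes a homeodomain transcription factor of the Iroquois family. In the vertebrate heart it is known for expression in the ventricular myocardium, where, as shown in chick, it supports ventricular and represses atrial gene expression, and in the mouse genome it lies in a cluster with Irx1 and Irx2. An enhancer is a DNA segment that raises transcription from a promoter, often over many kilobases and in chosen cell types. In a reporter assay each segment is read outside its own chromosomal surroundings.

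In mm10 coordinates the gene body of Irx4 spans chr13:73259589-73269622 on the plus strand. None of the 5 regions overlapped a gene of any type in RefSeq, so all were intergenic. Of these, 3 lay beyond the 3′ end of the gene. The names of the regions give the distance of the midpoint from an annotated start of transcription at 73260497, which lies inside the gene body. The +17.0 kb region (chr13:73277346-73277745, identifier GeneAVB_vMTF+p300-14-0) has its midpoint 17.0 kb downstream of this start and 7.9 kb from the gene body. The +22.1 kb region (chr13:73282371-73282770, GeneAVB_p300AVB-25-0) and the +29.9 kb region (chr13:73290195-73290594, GeneAVB-513-0) follow at 12.9 and 20.8 kb from the gene body. The other 2 lay far upstream, closer to the long non-coding RNA gene Gm30154 than to any protein-coding gene. These were the -90.1 kb region (chr13:73170212-73170611, GeneAVB-511-0) and the -100.0 kb region (chr13:73160286-73160685, GeneAVB-510-0). The authors' group column placed the +17.0, +22.1 and -90.1 kb regions in "spMTF or spP300", the +29.9 kb region in "TF3-4" and the -100.0 kb region in "MTF or P300". All 5 identifiers carry the tag GeneAVB. The tags and group names are used as given.

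The sequences of the 5 regions themselves were not used here. The 250 bases before the annotated start of Irx4 used here (RefSeq, GRCm38.p6, chr13:73260247-73260496, plus strand) are shown to place the locus. The RefSeq gene body begins further upstream, at 73259589, so this window lies inside it. Sequence before that upstream end was not examined. No tested region overlapped them.
Irx4 promoter: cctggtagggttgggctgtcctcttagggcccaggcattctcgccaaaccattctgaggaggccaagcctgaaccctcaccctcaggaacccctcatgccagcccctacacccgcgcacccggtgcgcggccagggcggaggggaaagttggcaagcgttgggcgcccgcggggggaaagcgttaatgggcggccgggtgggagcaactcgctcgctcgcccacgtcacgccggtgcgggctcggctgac
This stretch is GC-rich, at 68.8% against a median of 52.4% over 32851 RefSeq promoter windows of the same length. None of 7 motifs of cardiac regulators was found in it on either strand, so no base is in capitals. The motifs, with the share of all windows that hold each, were AGATAA for GATA factors (9.99%), AGGTGT for T-box factors (11.8%), GGAATG for TEAD factors (12.6%), CACTTNA for NKX2-5 (10.1%), the E-box CANNTG (66.2%), AGGTCA for nuclear receptors (14.02%) and the MEF2 motif (3.20%).

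Total counts ran from 1718563 to 2369985 in atrial replicates 2 to 5, from 2862596 to 3781726 in ventricular replicates 2 to 5 and from 2312820 to 2958271 in DNA. The replicate 1 RNA libraries were shallower, at 877773 counts in atrium and 1271527 in ventricle, and stood apart from the other RNA libraries. In them 765 and 700 regions had no count, against 71 to 85 in the other atrial and 36 to 66 in the other ventricular libraries. The DNA libraries had 657 to 731 regions with no count, near replicate 1 RNA and far above the other RNA libraries. Because replicate 1 RNA stood apart, the log2 chamber difference of each of the 5 regions is also given for replicate 1 and for replicates 2 to 5. These values are differences in log2 CPM between same-numbered libraries, not edgeR estimates, and can differ somewhat from the latter. Other chamber results are given without replicate 1 where leaving it out changed the call or moved the value by over 1.5 times. Levels are in CPM, counts brought to a common library total, with the 15 libraries scaled by the trimmed mean of M-values (TMM). Fold changes, standard errors and adjusted p-values come from edgeR's quasi-likelihood test on the 5 and 5 libraries compared, with Benjamini-Hochberg adjustment over the 2601 regions and a threshold of 0.05.

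The 3 downstream regions gave less reporter RNA in atrium than in ventricle, with no overlap between the 5 atrial and the 5 ventricular libraries at any of them. The difference was 2.51-fold at +17.0 kb, 2.01-fold at +29.9 kb and 1.63-fold at +22.1 kb. Neither upstream region passed the test between chambers. Of all 2601 regions, 30.9% passed, 15.8% with more and 15.1% with less RNA in atrium, and 12.4% had atrial libraries that all lay below the ventricular ones. In these bulk RNA samples, fewer cells of a type that uses a region and less RNA per cell cannot be told apart.

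**Figure D1:**
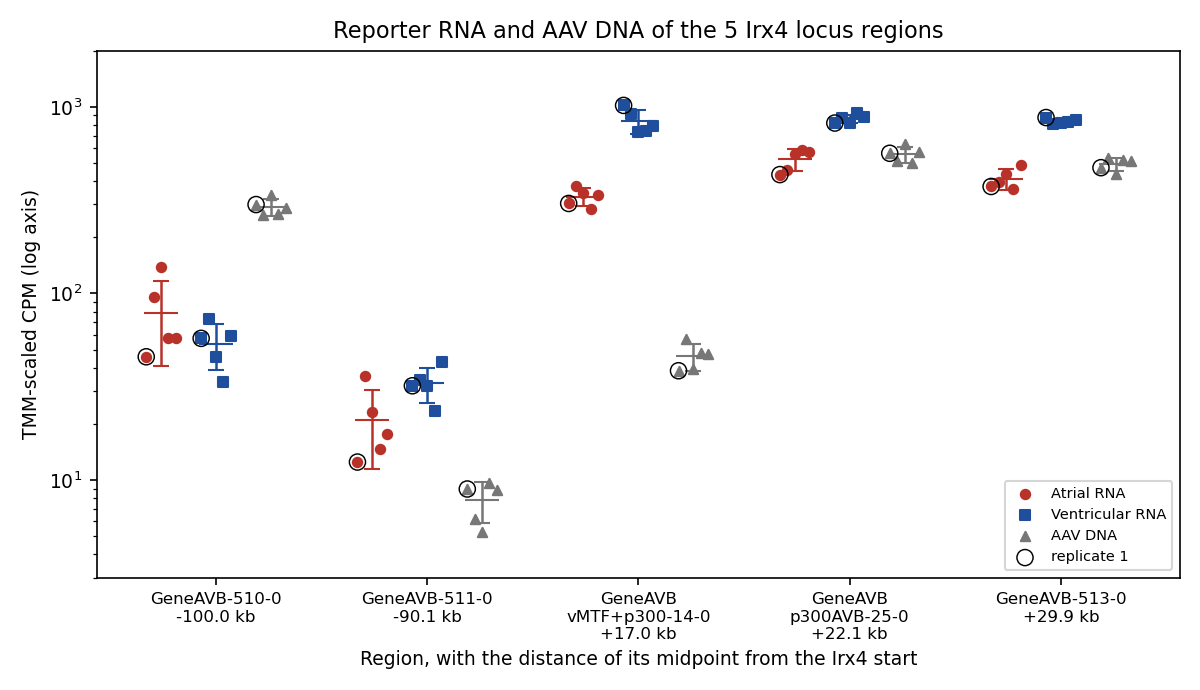
Reporter RNA and viral DNA of each Irx4 locus region in every library, in TMM-scaled CPM on a log axis, with the mean and SD of 5 libraries as bars and replicate 1 circled. At the 3 downstream regions every atrial point lies below every ventricular one, while at both upstream regions the chambers overlap.

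The +17.0 kb region had 303.7, 377.0, 346.4, 284.5 and 335.1 CPM in atrial replicates 1 to 5. In ventricular replicates 1 to 5 it had 1019, 914.0, 731.2, 740.2 and 786.0 CPM. The DNA libraries held 38.5, 57.2, 39.1, 47.9 and 47.4 CPM of it. Its lowest ventricular library thus stood well above its highest atrial one, and both chambers stood far above DNA. The log2 atrium over ventricle was -1.33 ± 0.12 (SE, adjusted p = 4.1e-07, n = 5 each). Ordered by this value, it was number 31 of the 2601 regions from the ventricular end. In replicate 1 the log2 difference was -1.74, and in replicates 2 to 5 it averaged -1.24.

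The +29.9 kb region had 374.4, 394.8, 438.1, 363.8 and 489.6 CPM in atrial replicates 1 to 5. Ventricular replicates 1 to 5 held 876.8, 813.3, 822.9, 826.9 and 846.1 CPM. Its DNA stood at 472.3, 534.8, 435.8, 518.2 and 513.6 CPM. Here the ventricular libraries lay above all DNA libraries, whereas the atrial libraries overlapped them at the lower end. The log2 atrium over ventricle was -1.01 ± 0.10 (SE, adjusted p = 1.1e-06), number 99 from the ventricular end. The difference was -1.23 in replicate 1 and -0.98 on average in replicates 2 to 5.

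The +22.1 kb region had 433.7, 457.8, 561.3, 589.9 and 570.8 CPM in atrial replicates 1 to 5. In ventricular replicates 1 to 5 it had 819.4, 867.3, 816.6, 927.5 and 882.9 CPM. The DNA libraries held 564.1, 512.9, 632.7, 498.9 and 571.2 CPM, which the atrial values overlapped and the ventricular values exceeded. The log2 atrium over ventricle was -0.71 ± 0.10 (SE, adjusted p = 7.8e-05), number 240 from the ventricular end. The difference was -0.92 in replicate 1 and -0.69 on average in replicates 2 to 5.

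The -90.1 kb region was scarce in the virus, with 23, 13, 9, 21 and 19 raw counts in DNA libraries 1 to 5. Its RNA came to 12.5, 36.3, 23.2, 14.7 and 17.7 CPM in atrial replicates 1 to 5. In ventricular replicates 1 to 5 it was 32.0, 34.5, 31.9, 23.5 and 43.0 CPM. The chambers overlapped through atrial replicate 2, while the other 4 atrial libraries lay below every ventricular one. The log2 atrium over ventricle of -0.63 ± 0.35 (SE) did not pass the test (edgeR, adjusted p = 0.196). The difference was -1.30 in replicate 1 and -0.56 on average in replicates 2 to 5.

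The -100.0 kb region had 45.8, 95.1, 138.1, 57.9 and 57.4 CPM in atrial replicates 1 to 5. The ventricular libraries held 57.4, 73.1, 45.7, 33.4 and 59.3 CPM. Its DNA stood at 299.6, 262.1, 337.1, 267.2 and 287.5 CPM, above every RNA library. Atrial replicates 2 and 3 exceeded all ventricular libraries and the other 3 did not. The log2 atrium over ventricle was 0.58 ± 0.32 (SE, edgeR adjusted p = 0.187). The difference in log2 CPM was -0.32 in replicate 1 and 0.67 on average in replicates 2 to 5. Without atrial replicate 3 the edgeR value was 0.27 (edgeR adjusted p = 0.550). Its SE was larger than that of the 3 downstream regions. Its raw RNA counts, 44 to 315 in atrium and 79 to 199 in ventricle, were lower than theirs in every RNA library. Its DNA, with a mean of 619 counts, does not enter this comparison.

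**Figure D2:**
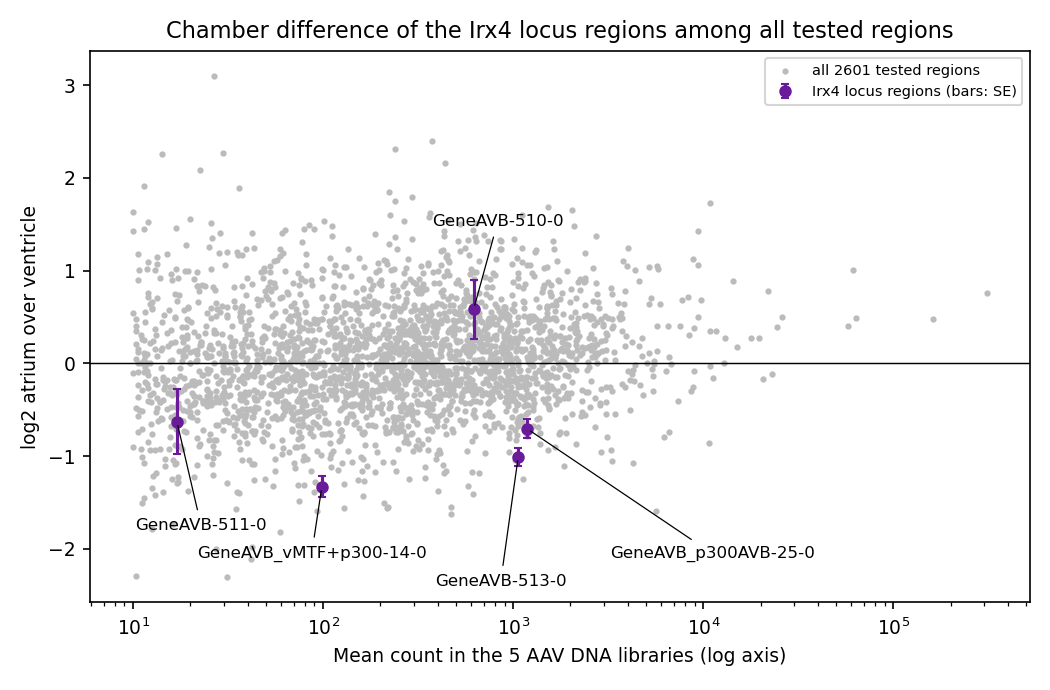
Log2 atrium over ventricle (vertical axis) against the mean DNA count on a log axis for all 2601 tested regions (grey), with the 5 Irx4 locus regions and their SE in purple. The 3 downstream regions sit at -0.71 to -1.33 with short error bars, in the lower part of the cloud. The upstream regions at -0.63 and 0.58 have wider bars.

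The ratio of 2 regions within a library needs no scaling between libraries, and it was compared between the chambers for all 10 pairs of the 5 regions by an exact two-sided permutation test (5 libraries against 5, where the smallest p is 0.00794). In 7 pairs the ratio differed between chambers after Benjamini-Hochberg adjustment over the 10 pairs. How often the ratio of other region pairs in the series differs between chambers was not tested, so this count has no background. The 10 pairs also share regions and are not independent, so the count is not a measure of the locus as a whole. The +17.0 kb region over the +22.1 kb region had a mean log2 ratio of -0.66 ± 0.29 in atrium and -0.05 ± 0.25 in ventricle (SD, n = 5, exact p = 0.0159, adjusted p = 0.0265). Against the +29.9 kb region the mean log2 ratio of the +17.0 kb region was -0.32 ± 0.17 in atrium and -0.01 ± 0.19 in ventricle (exact p = 0.0317, adjusted p = 0.0454). The +22.1 kb over the +29.9 kb region gave 0.34 ± 0.21 in atrium and 0.04 ± 0.10 in ventricle (exact p = 0.00794, adjusted p = 0.0159). With replicates 2 to 5 alone these differences were -0.55 for +17.0 over +22.1 kb (exact p = 0.0571), -0.26 for +17.0 over +29.9 kb (exact p = 0.114) and 0.30 for +22.1 over +29.9 kb (exact p = 0.0286, the smallest that 4 libraries against 4 allow). None of these pairs passed after adjustment with 4 libraries against 4. Leaving out another replicate in place of replicate 1 was not tested for these ratios.

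The -100.0 kb region differed from each of the other 4 in its chamber ratio. Its log2 ratio over the +17.0 kb region was -2.17 ± 0.55 in atrium and -3.99 ± 0.33 in ventricle (SD, n = 5, exact p = 0.00794, adjusted p = 0.0159), the largest such difference of the 10 pairs. The 3 pairs that did not pass all set the -90.1 kb region against a downstream one, with exact p of 0.0556 against +17.0 kb (adjusted p = 0.0694), 0.389 against +29.9 kb (adjusted p = 0.432) and 0.984 against +22.1 kb, which adjustment left as it was. In these pairs the SD of the ratio was 0.45 to 0.65 in atrium, so a miss does not show that the regions behaved alike. With replicates 2 to 5 alone all 10 differences kept their sign. The 4 pairs with the -100.0 kb region were at the smallest exact p of 0.0286, or 0.0571 after adjustment, and no pair passed.

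RNA over DNA sets the reporter RNA of each region against its amount in the DNA libraries, relative to the bulk of the library. Far more regions lacked counts in the DNA libraries than in RNA replicates 2 to 5. Whether the DNA libraries represent the virus behind those RNA libraries was not tested. The 2 comparisons share the same 5 DNA libraries. In the series, 74.7% of regions passed in atrium and 81.2% in ventricle, so passing is common. The Irx4 locus counts were 4 of 5 in atrium and 5 of 5 in ventricle, near this background. With RNA replicates 2 to 5 alone they were again 4 and 5. The direction was mixed: 2 regions were above DNA and 2 below in atrium, against 4 above and 1 below in ventricle, where 38.4% and 36.3% of all regions were above and below in atrium and 43.4% and 37.8% in ventricle.

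The +17.0 kb region was the most active of the locus. It reached a log2 RNA over DNA of 2.73 ± 0.15 in atrium (SE, adjusted p = 1.9e-09) and 4.18 ± 0.13 in ventricle (SE, adjusted p = 3.5e-14), or 6.64-fold and 18.2-fold. Log2 ratios in the series are higher where DNA is scarce. The median was 1.21 in atrium and 1.43 in ventricle over the 854 regions averaging 10 to under 100 DNA counts, where this one averaged 98.4. Among those 854 it stood above 79.6% in atrium and 91.4% in ventricle.

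The +22.1 and +29.9 kb regions lay close to their DNA level in atrium and above it in ventricle. In ventricle their log2 RNA over DNA was 0.63 ± 0.08 and 0.76 ± 0.08 (SE, adjusted p = 1.6e-06 and 7.8e-08), higher than in 83.8% and 85.9% of the 1177 regions averaging 300 or more DNA counts, whose median was -0.69. In atrium the +22.1 kb region had -0.19 ± 0.10 (SE, adjusted p = 0.0976), which turned to 0.14 with library totals and to 0.21 with scaling on the regions of the authors' group Neg. With no filter on DNA count it was -0.32 and passed as below DNA (edgeR adjusted p = 0.0175). The +29.9 kb region had -0.37 ± 0.11 (SE, adjusted p = 0.00601) in atrium. That call was lost with library totals (-0.042), with scaling on the Neg regions (0.036) and without DNA replicate 2 (-0.26, adjusted p = 0.0578), so its direction against DNA in atrium is not settled. Over all regions, the median atrial log2 ratio shifted by 0.33 under library totals and by 0.40 under the Neg scaling.

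The -90.1 kb region had a log2 RNA over DNA of 1.31 ± 0.35 in atrium and 2.06 ± 0.26 in ventricle (SE, adjusted p = 0.00422 and 1.7e-06). It passed in both, yet it stood above only 52.1% of the regions of like DNA count in atrium and 63.4% in ventricle, close to their middle. The RNA of the -100.0 kb region fell short of its DNA everywhere, with log2 values of -1.97 ± 0.25 in atrium and -2.44 ± 0.17 in ventricle (SE, adjusted p = 7.1e-06 and 1.2e-09). Only 6.55% and 4.25% of the 1177 regions of like DNA count were lower. These upstream neighbours, 9.5 kb apart, thus lay above and far below their DNA levels. Their DNA counts differed too. Regions of like count had a median log2 of 1.21 for the -90.1 kb and -0.66 for the -100.0 kb region in atrium. In ventricle these medians were 1.43 and -0.69.

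**Figure D3:**
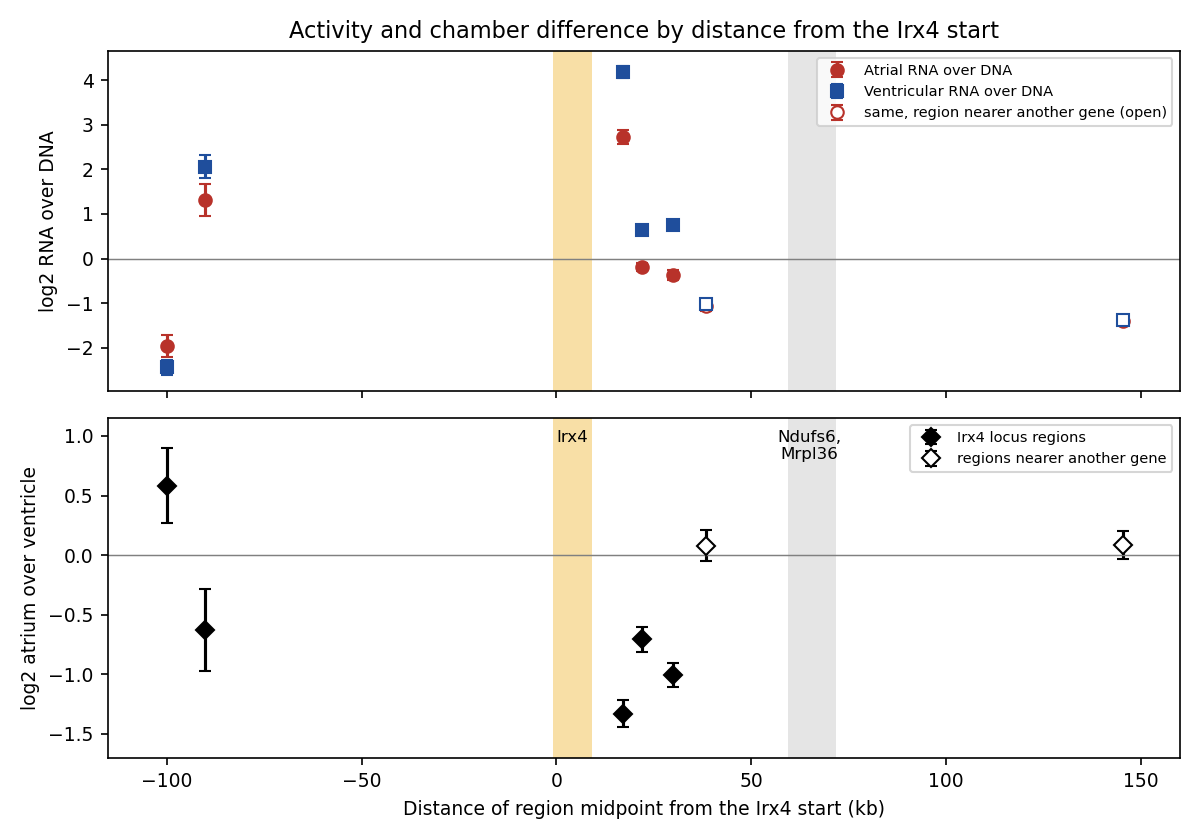
Upper panel: log2 RNA over DNA in atrium (red circles) and ventricle (blue squares) against the distance of each region's midpoint from the Irx4 start in kb. Lower panel: log2 atrium over ventricle. Bars are SE, filled points are the 5 Irx4 locus regions, open points are tested regions nearer to another gene, and shaded bands are gene bodies. The 3 filled points between 17.0 and 29.9 kb lie below 0 in the lower panel, and the open points beside them lie at 0.08.

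The 3 downstream regions reached nearly the same ventricular RNA level from unequal amounts of DNA. Ventricular RNA averaged 838.0 ± 125 CPM at +17.0 kb, 862.7 ± 46.4 at +22.1 kb and 837.2 ± 25.1 at +29.9 kb (SD, n = 5). Their DNA averaged 46.0 ± 7.65, 555.9 ± 53.2 and 494.9 ± 40.3 CPM. In atrium the RNA levels were spread more widely, at 329.3 ± 36.3, 522.7 ± 71.5 and 412.1 ± 51.8 CPM. The 5 regions together took 1364 ± 134 CPM of atrial RNA, 2625 ± 137 CPM of ventricular RNA and 1395 ± 43.5 CPM of DNA (SD, n = 5). The +17.0 kb region supplied 24.2% ± 2.501 of the locus total in atrial RNA and 31.8% ± 3.13 in ventricular RNA, but 3.31% ± 0.602 in DNA.

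The limits of the rule can be seen on both sides of the gene. The -100.0 kb region was just inside, with its midpoint 99.1 kb from the gene body, and no other region of the series lay within 300 kb upstream. Downstream, the next region (chr13:73298568-73298967, GeneAVB-514-0) was 29.1 kb from Irx4 but 21.1 kb from Ndufs6, a subunit of mitochondrial complex I, and so fell outside. It had a log2 atrium over ventricle of 0.08 ± 0.13 (SE), or 0.042 in replicates 2 to 5, and a log2 RNA over DNA of -1.06 ± 0.12 in atrium and -1.03 ± 0.09 in ventricle. A region of chr13:73405634-73406033, nearest to Lpcat1 and 136.2 kb from Irx4, had similar values at 0.08 ± 0.12 between chambers and -1.40 ± 0.10 and -1.37 ± 0.08 against DNA in atrium and ventricle. Both had nearly equal RNA in the chambers and less RNA than DNA.

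By the rule for likeness, the regions of the series whose profile over the 10 RNA libraries, in log2 CPM minus the mean of DNA, was nearest to that of the +17.0 kb region were found by Euclidean distance. The nearest lay inside Gipc2 (chr3:152133554-152133953, distance 0.618), with a log2 atrium over ventricle of -1.23. Next was a region 14362 bp from Coq8a, which acts in making coenzyme Q (chr1:180210183-180210582, distance 0.802), at -1.56, and then a region inside Cilk1, a protein kinase gene (chr9:78139419-78139818, distance 0.869), at -1.11. Their log2 RNA over DNA ran from 2.71 to 2.96 in atrium and from 4.20 to 4.39 in ventricle. That these lie around the values of the +17.0 kb region follows from the choice by this profile. Mean DNA counts were 21 for the Gipc2, 216.8 for the Coq8a and 343.2 for the Cilk1 region.

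Among the other Iroquois genes, Irx1, Irx3 and Irx5 had 4 tested regions in all, of which 1 was lower in atrium, none was higher and 3 did not pass the edgeR test, where 15.1% of all 2601 regions were lower and 15.8% higher. These include a region 13505 bp from Irx5 with the identifier ESC-Neg-647-0, at -0.16 ± 0.19 (SE), which did not pass. The region that passed lay 12682 bp from Irx3 (chr8:91814137-91814536), with 116.9 ± 23.7 CPM in atrium and 315.0 ± 33.8 CPM in ventricle under the scaling of that comparison (SD, n = 5), a log2 difference of -1.43 ± 0.16 (SE, adjusted p = 7.1e-06), close to that at +17.0 kb of Irx4. A region 60096 bp from Irx1, in the cluster of Irx4, had 0.35 ± 0.18 (SE, adjusted p = 0.155), and in replicates 2 to 5 it was higher in atrium at 0.52 ± 0.17 (SE, edgeR adjusted p = 0.0360). The median of the 4 was 0.10 and their mean -0.18, against a median of 0.03 over all 2601 regions.

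Regions near ventricular identity genes (Myh7, Myl2 and Myl3 of a list of 7) counted 3 lower in atrium, none higher and 5 not passing of 8 tested, with a median log2 of -0.003, or -0.016 in replicates 2 to 5. Over all regions 15.1% were lower in atrium and 15.8% higher. The 3 that passed were neighbouring segments near Myh7, the slow beta-myosin heavy chain, at -1.50 ± 0.12 and -0.29 ± 0.06, and a segment inside Myl3, a ventricular myosin light chain gene, at -0.56 ± 0.12 (SE). Near atrial identity genes, 7 of 15 tested regions were higher in atrium, 1 was lower and 7 did not pass, with a median of 0.63, against the same 15.8% and 15.1% over all regions. Without replicate 1, 6 were higher. The lower one lay 43358 bp from Nr2f2, an orphan nuclear receptor of atrial identity, at -0.77 ± 0.08 (SE). The regions with the smallest p among the higher ones lay near Tbx5, a T-box factor, at 1.89 ± 0.18, and Myl7, the atrial regulatory light chain, at 2.39 ± 0.20. Near factors active in both chambers, 1 of 5 tested regions was higher in atrium, inside Tead1 at 0.63 ± 0.14, and 1 was lower, 59531 bp from Gata6 at -0.41 ± 0.11, and the median was 0.47. These include another region inside Tead1 with the identifier ESC_Neg-31-0, at -0.36 ± 0.13 (SE), which did not pass. The single region near Rxra, a retinoid receptor that in chick acts with Irx4 on a myosin gene, had 0.18 ± 0.15 (SE, adjusted p = 0.440), or 0.33 in replicates 2 to 5 (edgeR adjusted p = 0.137).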

How the data were processed

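Reporter RNA of atria and ventricles and DNA of the AAV9 library were measured in 15 libraries, grouped and numbered by the labels. Per the labels' protocols, RNA and DNA templates were copied with a UMI primer and amplified by PCR. Cutadapt 2.5 and Bowtie2 2.3.4.3 are listed, with mm10, in the submitters' processing notes. The authors deposited raw counts for each region. The labels do not say whether these are reads or UMI-collapsed molecules. The series table and the sample files held the same counts (0 differing values).

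Region starts were written 1-based. Genes came from RefSeq (GRCm38.p6, the build of mm10). Tests used edgeR 4.0.16 in R 4.3.3 (robust quasi-likelihood, TMM) on the 2601 regions averaging 10 or more DNA counts, with DESeq2 1.42.0 as an alternative. Standard errors come from the log2 fold change and its F statistic. Ratios within a library used counts plus 0.5, and log2 CPM a prior count of 2. The code was tested on simulated data. The members, gene lists and tests were chosen with earlier results of these data known. All 5 members are named. The rule for likeness takes the 3 nearest regions to the most active and to the most chamber-different member, which were the same region, and from each list up to 3 regions with the smallest p are named.

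Replicates differed by more than counting noise, since chi-square divided by its degrees of freedom was at least 17.7 among atrial, 12.7 among ventricular and 1.79 among DNA pairs. Deviations of same-numbered atrial and ventricular libraries from their group means correlated at 0.819 for replicate 1 and at 0.225 to 0.241 for the others, and were therefore taken as pairs in an alternative fit, since all exceeded 0.1. Replicates 1 and 2 matched their own number best, and replicates 3, 4 and 5 another number. No genome sequence was used here.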

Additional observations from a re-analysis of the deposited data

How the results depend on the processing

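Between chambers, all 88 alternative values of the 5 regions kept their direction and their side of the threshold. The 3 downstream regions were called under every alternative that tested them, with log2 atrium over ventricle from -1.39 to -1.18 at +17.0 kb, -1.08 to -0.86 at +29.9 kb and -0.76 to -0.56 at +22.1 kb. The uncalled values ran from 0.27 to 0.76 at -100.0 kb and -0.92 to -0.47 at -90.1 kb. The pairing of same-numbered libraries (replicate block) gave 869 calls against 804 and changed no call at the locus, and a term for replicate 1, added after seeing the data, gave 881. Leaving out 1 library at a time gave 667 to 805 calls between chambers, 1827 to 1974 in atrium over DNA and 2034 to 2140 in ventricle over DNA, with 3, 3 to 4 and 5 Irx4 regions among them. Scaling on the Neg regions moved the median of all regions by 0.15 between chambers, and the split became 563 higher and 237 lower in atrium, against 412 and 392. For atrium over DNA the split was 999 above and 945 below, which library totals turned into 1189 and 676 and the Neg scaling into 1264 and 644. For ventricle over DNA library totals and the Neg regions moved the median by 0.21 and 0.13, with no change of call at the locus. Without a filter on DNA count there were 2952 calls in atrium and 3171 in ventricle against DNA, over more regions, and the +22.1 kb region was called in atrium at -0.32, which made 5 Irx4 calls there. At a mean DNA count of at least 100 there were 1280 in atrium, and 1 and 3 Irx4 regions were called in atrium and ventricle. The -90.1 and +17.0 kb regions are not tested there, and the median of the other regions moved by 0.42 in atrium. In atrium over DNA the +22.1 kb region turned to 0.14 with library totals, 0.21 with the Neg regions and 0.24 at DNA counts of at least 100, and the +29.9 kb region to 0.036 with the Neg regions and 0.054 at those counts. With 2 added to each count in place of 0.5, the ratio of the -90.1 over the +17.0 kb region passed between chambers (exact permutation test, adjusted p = 0.0340). For RNA against DNA, the same-number correlations were -0.032 to 0.061, which does not pair the libraries. Depth limits the -90.1 kb region most, with a mean of 17.0 DNA counts.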

Other observations

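A tile directly adjoining the region GeneAVB-514-0, at chr13:73298968-73299367 and 29.5 kb from Irx4, had 0 counts in 4 of the 5 DNA libraries and 1 count in DNA replicate 5, and was not tested. Its RNA counts were 76, 196, 204 and 130 in atrial replicates 2 to 5 and 318, 397, 353 and 398 in ventricular replicates 2 to 5, and 0 in replicate 1 of both chambers. RNA was thus counted in 8 libraries for a sequence that the DNA libraries and the replicate 1 RNA libraries hardly held.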
